A study of Homo sapiens with 5 samples.

Results

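Integrins are cell surface receptors made of an alpha and a beta subunit, and this account describes 9 of their genes in TF-1 cells: ITGA4, ITGA5, ITGB1, ITGA2B, ITGB3, ITGAL, ITGAM, ITGB2 and ITGB7. The members were all probe sets whose only platform gene symbol was one of these names, which gave 25 probe sets for the 9 genes out of 22283 on the array (19065 with 1 symbol). TF-1 is an established human erythroleukaemia line that depends on growth factor and serves as a model of erythroid progenitors. Cells were kept in medium with 10% fetal calf serum and 5 ng/mL GM-CSF, deprived of growth factor overnight, and then given a cytokine for 6 h. All groups carried an MSCV retroviral vector with a GFP marker. The vector cells (MSCV-GFP) were given GM-CSF (5 ng/mL), Steel factor (SF, the ligand of c-Kit, 20 ng/mL) or erythropoietin (Epo, dose not given in the sources used here). The DbSCL cells, which also express a form of the TAL1 product SCL that cannot bind DNA, were given SF or Epo. The labels do not say whether the transduced cells were sorted, pooled or cloned. With a single array for each of the 5 groups there are no replicates. A model adding construct and cytokine would have only the interaction as its error, with 1 residual degree of freedom; it was not fitted, and no p-value is given. Since every group received a cytokine, the data do not show which of 2 compared cytokines moved a gene.

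Integrins bind matrix proteins or counter-receptors on other cells, and their affinity is switched from inside the cell by proteins such as talin and the kindlins, which attach to the beta tail. On haematopoietic progenitors, alpha4 with beta1 (VLA-4) binds VCAM-1 and fibronectin in the marrow, and alpha5 with beta1 (VLA-5) binds fibronectin. Cytokines including SF and GM-CSF are known to change the activity of both integrins at the protein level. Alpha4 also pairs with beta7, a receptor for MAdCAM-1. AlphaIIb (ITGA2B) with beta3 (ITGB3) is the fibrinogen receptor of megakaryocytes and platelets, and alphaL and alphaM pair with the leukocyte chain beta2 (ITGB2) as LFA-1 and Mac-1. An array of mRNA measures neither subunit pairing nor activity.

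The deposited values are log2 signals, 1 per probe set and array. The medians of the arrays lay between 4.90 and 4.99. A floor was set at 4.45, the 40th percentile of the signals outside the control probe sets. Of the 25 integrin probe sets, 15 were above it on all 5 arrays, 2 on some arrays and 8 on none, and each of the 9 genes had at least 1 probe set above it on every array. All 9 of the TF-1 markers that could be matched, of 12 listed, were also above it, among them CD34, KIT, EPOR, GATA1 and TAL1. So were 5 of 6 T and NK cell markers (CD3D from 6.45 to 6.74), and a signal above the floor is therefore not read here as expression. The arrays differed in their controls: the mean of 9 hybridization control probe sets, spiked into the sample, was 10.26 on vector GM-CSF, 9.76 on vector SF, 9.31 on vector Epo, 10.32 on DbSCL SF and 9.51 on DbSCL Epo. The vector GM-CSF and vector Epo arrays had the lowest correlation of any pair across the 11038 probe sets above the floor on all arrays (r = 0.956), and vector SF and DbSCL Epo had the highest (r = 0.993). Probe sets are not independent, and these values describe the arrays only.

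Lacking replicates, the error of a difference was estimated from the 4 SF and Epo arrays. The DbSCL difference under SF minus that under Epo was taken, and its scaled median absolute deviation was divided by the square root of 2. The result ran from 0.18 to 0.29 log2 over 10 bins of mean signal, includes any real interaction, and is called the estimated spread below. It stands for a single standard deviation, so a difference beyond it need not be a change. It was taken over probe sets with different values on all 4 arrays, and with the others included it ran from 0.13 to 0.25. The GM-CSF array has no part in it, so it does not cover the error of differences from that array. At 1.5-fold, 15.3% of all probe sets compared were called for Epo minus GM-CSF, and 1.62% for SF minus Epo in vector cells. Exactly equal values on 2 or more arrays occurred for 58.4% of all probe sets and for 5 of the 15 integrin probe sets above the floor. A difference of 0 from such values is a property of the deposited summary and does not measure the absence of a change.

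**Figure D1:**
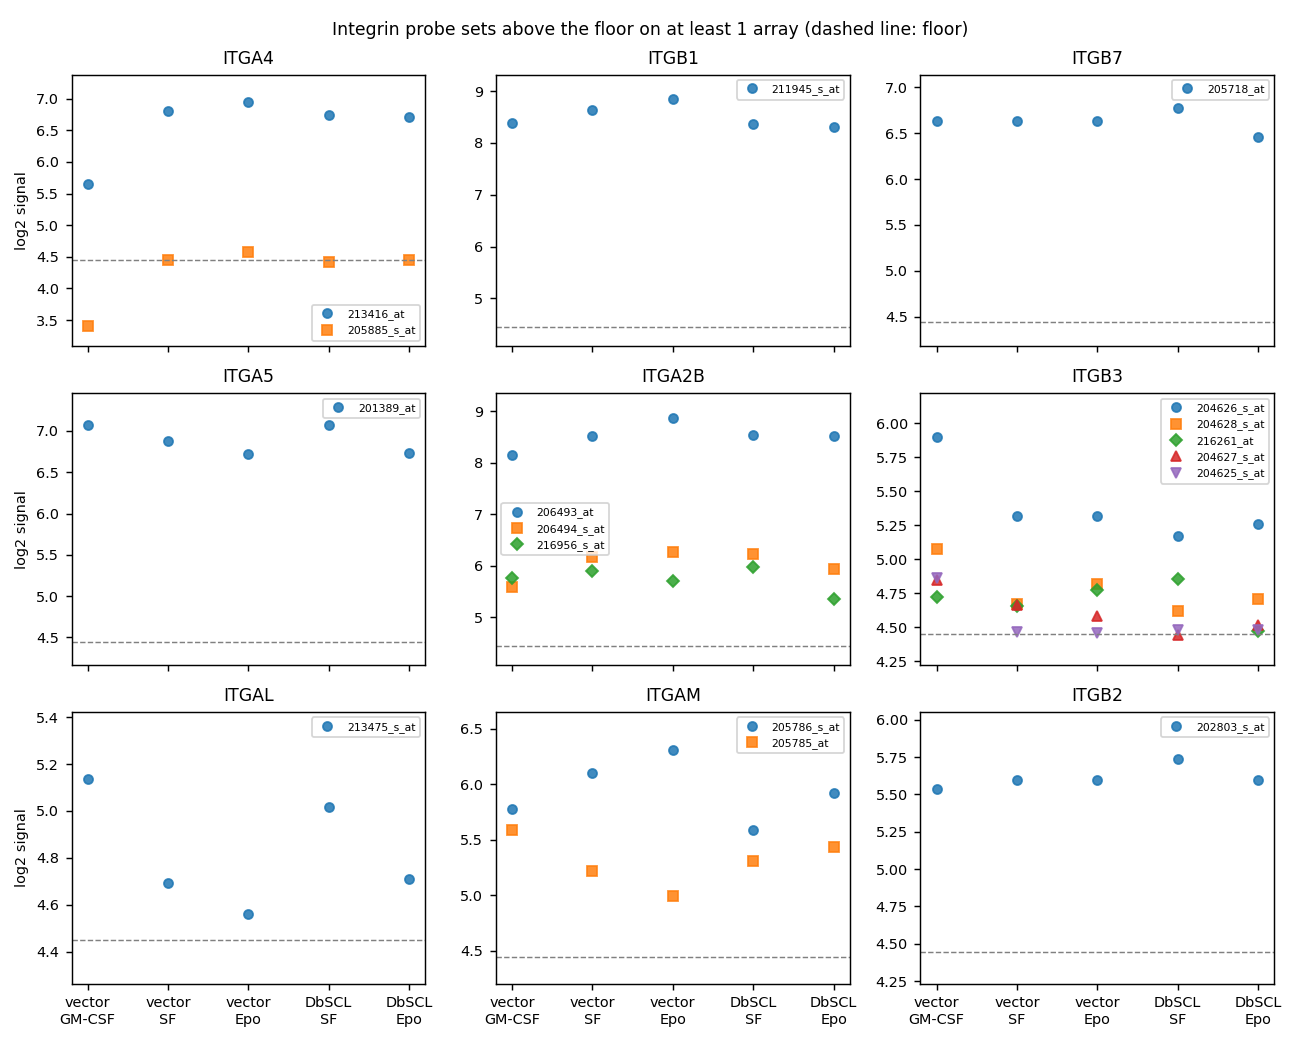
Log2 signal (vertical axis) of each integrin probe set that was above the floor on at least 1 of the 5 arrays (horizontal axis), 1 panel per gene; each point is a single array and the dashed line is the floor at 4.45. The ITGA4 points of vector GM-CSF lie below the other 4 arrays, whereas 4 of the 5 ITGB3 probe sets are highest on that array, and the probe sets of ITGAM run in opposite directions.

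ITGA4, the alpha4 subunit, was the integrin gene that differed most. Its brightest probe set (213416_at) had a log2 signal of 5.65 in vector cells given GM-CSF, 6.81 with SF and 6.96 with Epo, while DbSCL cells had 6.75 with SF and 6.71 with Epo. The 4 SF and Epo arrays thus lay within 0.25 of each other, and the GM-CSF array stood more than 1 log2 unit below all of them. In vector cells the difference was 1.17 for SF minus GM-CSF (2.24-fold) and 1.31 for Epo minus GM-CSF (2.48-fold), with an estimated spread of 0.26. These were the 23rd highest of 12163 and the 109th highest of 12200 probe sets compared. Probe sets of similar mean signal had median differences of 0.05 and 0.03. Both comparisons use the same GM-CSF array and are not independent of each other. That array also had 18S signals (mean of 3 probe sets) of 9.02 against 7.45 to 8.32 on the other 4, and the part of such array differences in the ITGA4 result was not tested. In whole-culture RNA, fewer cells with a transcript and less of it per cell cannot be told apart.

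The second ITGA4 probe set, 205885_s_at, had signals of 3.41 with GM-CSF, 4.45 with SF and 4.58 with Epo in vector cells, and of 4.41 and 4.44 in DbSCL cells under SF and Epo. The GM-CSF array was again the lowest, but all values lay at or below the floor or just above it. As deposited the differences were 1.04 and 1.16, and with the floor they became 0.00 and 0.13. The third probe set, 205884_at, stayed below the floor, from 2.95 to 3.29, and was lowest on the GM-CSF array too. When the probe sets of each gene were averaged, no integrin gene reached 2-fold in either comparison.

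Between the SF and Epo arrays ITGA4 differed little. The brightest probe set gave −0.14 for SF minus Epo in vector cells and 0.04 in DbSCL cells. DbSCL minus vector was −0.06 under SF and −0.25 under Epo, each within the estimated spread of 0.26.

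The 250 bases before the annotated ITGA4 start (RefSeq, GRCh38.p14, chr2:181457136-181457385, plus strand) are shown because ITGA4 carried the one 2-fold difference, and those of ITGB1 (chr10:32958231-32958480, minus strand, the upstream of 2 annotated starts), ITGA2B (chr17:44389650-44389899, minus strand) and ITGAM (chr16:31259725-31259974, plus strand) because these genes had the lowest DbSCL differences. The table held starts for 6 of the 9 members. Each is written 5′ to 3′ along the gene, with capitals for CANNTG, the E box letters that SCL and its E protein partners recognise, and for GATA on either strand (TATC where it is on the other), the core of sites for GATA factors, which join SCL in a complex.
ITGA4: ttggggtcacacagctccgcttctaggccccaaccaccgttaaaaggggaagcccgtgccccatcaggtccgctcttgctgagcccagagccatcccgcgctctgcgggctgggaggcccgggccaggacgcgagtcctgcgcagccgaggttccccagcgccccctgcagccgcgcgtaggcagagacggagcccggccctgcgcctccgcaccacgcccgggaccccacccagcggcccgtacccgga
ITGB1: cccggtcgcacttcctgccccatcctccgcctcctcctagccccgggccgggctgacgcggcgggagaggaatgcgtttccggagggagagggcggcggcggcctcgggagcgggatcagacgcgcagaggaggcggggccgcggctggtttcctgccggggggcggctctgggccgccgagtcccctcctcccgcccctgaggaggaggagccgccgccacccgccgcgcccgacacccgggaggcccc
ITGA2B: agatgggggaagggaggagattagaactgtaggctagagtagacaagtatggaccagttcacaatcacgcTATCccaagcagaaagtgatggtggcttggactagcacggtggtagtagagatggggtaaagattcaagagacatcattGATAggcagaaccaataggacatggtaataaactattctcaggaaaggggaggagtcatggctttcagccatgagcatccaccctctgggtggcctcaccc
ITGAM: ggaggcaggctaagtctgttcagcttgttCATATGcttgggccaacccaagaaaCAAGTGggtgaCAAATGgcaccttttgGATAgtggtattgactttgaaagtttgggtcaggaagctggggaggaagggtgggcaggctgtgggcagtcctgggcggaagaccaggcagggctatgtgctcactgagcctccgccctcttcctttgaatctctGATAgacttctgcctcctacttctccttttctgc
The ITGA4 window and the ITGB1 window shown hold neither motif; the window of the other ITGB1 start (chr10:32935559-32935808) holds GATA once, starting 171 bases before it, and no CANNTG. The ITGA2B window holds GATA at 2 places, starting 180 and 101 bases before the gene's start, and no CANNTG. The ITGAM window holds 3 CANNTG and 2 GATA. Of 35116 windows of this length in the table, 61.8% hold CANNTG and 45.6% hold GATA on either strand. The joined form CANNTGNNNNNNNNNGATA, searched on both strands, is in 0.37% of all windows and in none of the 4 shown. A match is a run of letters and not a shown binding site, and nothing about SCL binding follows from its absence.

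The beta subunits that pair with alpha4 did not share its pattern at 2-fold. ITGB1, the common beta1 chain, had 1 probe set above the floor (211945_s_at), with 8.38 with GM-CSF, 8.63 with SF and 8.85 with Epo in vector cells, and 8.36 and 8.31 in DbSCL cells under SF and Epo. As deposited, vector cells with SF or Epo were the highest, and the DbSCL arrays were at the level of the GM-CSF array. SF minus GM-CSF was 0.24 and Epo minus GM-CSF was 0.46, where probe sets of similar mean signal had medians of 0.24 and 0.30 and the estimated spread was 0.29. The first of these turned to −0.0088 with quantile normalization, and the second was then 0.12. DbSCL minus vector was then −0.14 under SF and −0.40 under Epo, so both DbSCL arrays lay below the GM-CSF array in that setting. The other 4 ITGB1 probe sets were below the floor on all arrays, from 2.50 to 3.11.

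ITGB7, the beta7 chain, had exactly the same signal of 6.63 on the 3 vector arrays, and 6.77 and 6.46 in DbSCL cells under SF and Epo. Its differences from the vector arrays, 0.14 and −0.17, were within the estimated spread of 0.26. SF minus Epo in DbSCL cells was 0.31, beyond that spread.

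ITGA5, the alpha5 chain of the fibronectin receptor VLA-5, ran the other way from ITGA4. Its only probe set (201389_at) had 7.08 with GM-CSF, 6.87 with SF and 6.72 with Epo in vector cells, and 7.08 and 6.73 in DbSCL cells under SF and Epo. Epo minus GM-CSF was −0.35, larger than the estimated spread of 0.25, and SF minus GM-CSF was −0.20, within it. That spread does not cover the error of differences from the GM-CSF array. With quantile normalization these were −0.55 and −0.38. Probe sets of similar mean signal had medians of 0.17 and 0.16 in these comparisons. The Epo arrays were the lowest in either cell population, and SF minus Epo was 0.15 in vector cells and 0.34 in DbSCL cells.

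ITGA2B, the alphaIIb chain and a marker of the megakaryocyte lineage and of early progenitors, had 3 probe sets above the floor. The brightest, 206493_at, had 8.15 with GM-CSF, 8.51 with SF and 8.88 with Epo in vector cells, and 8.54 and 8.51 in DbSCL cells under SF and Epo. The vector Epo array was the highest and the GM-CSF array the lowest. Epo minus GM-CSF was 0.73 (1.66-fold) and SF minus GM-CSF 0.36, with an estimated spread of 0.29, where probe sets of similar mean signal had medians of 0.30 and 0.24. With quantile normalization these fell to 0.39 and 0.11. The second, 206494_s_at, had 5.59, 6.18 and 6.27 in vector cells given GM-CSF, SF and Epo, and 6.23 and 5.93 in DbSCL cells under SF and Epo. It gave 0.59 for SF minus GM-CSF and 0.68 for Epo minus GM-CSF, at 0.61 and 0.69 with quantile normalization. The third, 216956_s_at, did not follow, with 5.76, 5.90 and 5.71 in vector cells in the same order, and 5.97 and 5.36 in DbSCL cells. The fourth probe set was below the floor, from 2.85 to 2.99.

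ITGB3, the beta3 chain that pairs with alphaIIb, did not move with ITGA2B between cytokines. Its brightest probe set (204626_s_at) had 5.90 under GM-CSF against an equal 5.32 under SF and Epo in vector cells, and 5.17 and 5.26 in DbSCL cells under SF and Epo. The GM-CSF array was the highest of the 5, by 0.58 over the next. The difference was −0.58 in each comparison (1.49-fold, just short of the 1.5-fold count), with an estimated spread of 0.23 and medians of −0.07 and −0.09 for probe sets of similar mean signal. Of the 4 other ITGB3 probe sets above the floor on at least 1 array, 3 were also highest under GM-CSF. Over those 4, SF minus GM-CSF ran from −0.40 to −0.06 and Epo minus GM-CSF from −0.40 to 0.05. All 4 lay at 5.08 or below, close to the floor. The remaining 2 probe sets were below it on all arrays.

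The beta2 integrins gave weak or conflicting signals. ITGAL, the alphaL chain of LFA-1, had 5.14 with GM-CSF, 4.69 with SF and 4.56 with Epo in vector cells, and 5.02 and 4.71 in DbSCL cells under SF and Epo. GM-CSF was the highest and vector Epo the lowest, with Epo minus GM-CSF at −0.58 and SF minus GM-CSF at −0.45. Probe sets of similar mean signal had medians of −0.11 and −0.09 in these comparisons. The estimated spread, which leaves out the GM-CSF array, was 0.18. ITGB2, the beta2 chain, had 5.54 under GM-CSF, an equal 5.60 under SF and Epo in vector cells, and 5.74 and 5.60 in DbSCL cells under SF and Epo. Its whole range of 0.20 lay within the estimated spread of 0.23, which also leaves out the GM-CSF array.

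ITGAM, the alphaM chain of Mac-1 and a marker of myeloid cells, was read by 2 probe sets that disagreed in direction. The brighter, 205786_s_at, had 5.78, 6.10 and 6.31 in vector cells given GM-CSF, SF and Epo, and 5.58 and 5.92 in DbSCL cells under SF and Epo. The other, 205785_at, had 5.58, 5.22 and 4.99 in vector cells in the same order, and 5.31 and 5.44 in DbSCL cells. The estimated spreads of these probe sets, which leave out the GM-CSF array, were 0.25 and 0.23. Epo minus GM-CSF was 0.53 in the first and −0.59 in the second, so no direction can be given for the gene. With the floor raised to the 60th percentile the second value was −0.16. Other myeloid markers were mostly weak: of 8 monocyte and granulocyte markers, 6 were below the floor on all arrays, among them CD14 and CSF1R, and the summed linear signal of the list ran from 138 to 160 over the arrays.

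Counted over all members, 1 of the 17 probe sets compared was 2-fold higher under SF than under GM-CSF in vector cells and 0 were lower, where 0.666% of all probe sets compared were called in either direction. For Epo minus GM-CSF the counts were 1 higher and 0 lower, against 3.59% of all. In each case the called probe set was that of ITGA4. At 1.5-fold 2 were called for SF, both higher, against 8.4% of all, and 4 for Epo, 3 higher and 1 lower, against 15.3% of all, so the members' share was not far from that of all probe sets. The median difference of the 17 was 0.00 in both, as it was over all probe sets, with 8 above 0 and 8 below. Of the 15 integrin probe sets above the floor on all arrays, the vector GM-CSF array was strictly highest in 6 and strictly lowest in 4, and it was so in 26.4% and 30.2% of all probe sets.

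**Figure D2:**
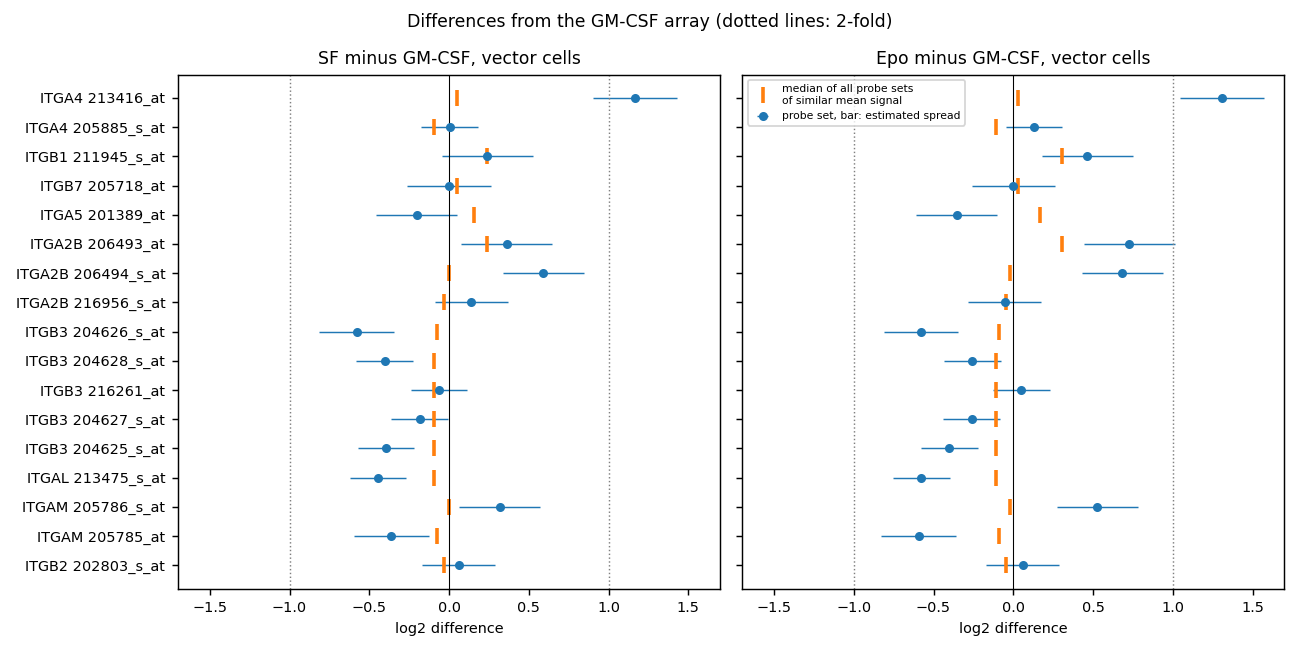
Log2 difference of vector cells from the GM-CSF array (horizontal axis) under SF (left) and Epo (right) for the 17 integrin probe sets above the floor on at least 1 array; points are differences between single arrays, bars are the estimated spread without replicates, orange marks are the median of all probe sets in the same bin of mean signal, and dotted lines mark 2-fold. The brightest ITGA4 probe set lies past 2-fold in both panels (1.17 and 1.31). Under SF all 3 ITGA2B probe sets lie on the higher side and all 5 ITGB3 probe sets on the lower side. Under Epo 2 of 3 ITGA2B probe sets lie on the higher side and 4 of 5 ITGB3 probe sets on the lower side. Values have the floor applied, and the bars rest on the SF and Epo arrays only.

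Between SF and Epo no member differed by 2-fold. In vector cells the 17 differences ran from −0.37 (ITGA2B 206493_at) to 0.23 (ITGAM 205785_at), with 0 called at 1.5-fold against 1.62% of all probe sets, and 0 at 2-fold against 0.0425%. In DbSCL cells the 16 differences ran from −0.34 to 0.61, with 0 at 2-fold against 0.233% of all. The 1 called at 1.5-fold, against 3.8% of all, was ITGA2B 216956_s_at (0.61, the 101st highest of 12004), for which the other ITGA2B probe sets above the floor gave 0.02 and 0.30.

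The DbSCL comparison asked whether integrin transcripts differ when SCL without DNA binding is expressed. For beta-actin, the 3′ probe set exceeded the 5′ probe set, a sign of RNA quality, by 1.89 on vector SF against 3.33 on DbSCL SF, and 2.74 on vector Epo against 3.01 on DbSCL Epo; its part in the differences below was not tested. No member reached 2-fold or 1.5-fold under either cytokine, where 0.434% and 5.37% of all probe sets did under SF, and 0.381% and 3.49% under Epo. Under SF the median over 17 probe sets was 0.02, with 10 above 0 and 7 below, and the median of all was 0.00. Under Epo the median was −0.13, with 4 above 0, 12 below and 1 at 0, and the median of all was again 0.00. The 17 include 5 probe sets of ITGB3 and 3 of ITGA2B, and this median depended on the setting: it was −0.17 with the brightest probe set per gene, −0.03 without a floor, −0.26 with the floor at the 60th percentile and 0.00 with gene means.

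ITGA2B was lower in DbSCL cells under Epo by nearly the same amount in all 3 probe sets above the floor: −0.37, −0.34 and −0.35, against estimated spreads of 0.29, 0.25 and 0.23 and medians of −0.11, 0.00 and 0.00 for probe sets of similar mean signal. These ranged from −0.23 to −0.39 over the other scalings of the arrays. All 3 compare the same DbSCL Epo and vector Epo arrays, so they do not replicate each other. The vector Epo array also enters the differences of Epo from GM-CSF and from SF in vector cells. Under SF the same probe sets gave 0.02, 0.05 and 0.07, values that lie within the spread; the first and second of these turned just below 0 when arrays were centred on their medians. Of the megakaryocyte and platelet markers, 4 of the 5 matched exceeded the floor throughout (GP1BA, GP9, PF4 and SELP), PPBP was below it, and the summed linear signal of the list was 326 on vector Epo, 343 on DbSCL Epo, 332 on vector SF and 370 on DbSCL SF. The part of these markers in the ITGA2B result was not tested. Whether the ITGA2B difference itself differs between SF and Epo cannot be tested with 1 array per group.

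ITGB1 was lower in DbSCL cells under both cytokines, by −0.27 under SF and −0.54 under Epo. The second is the 432nd lowest of 11821 probe sets and exceeds the estimated spread of 0.29, while the first does not and was −0.14 with quantile normalization. The medians for probe sets of similar mean signal were −0.08 and −0.11, and the DbSCL Epo difference ran from −0.40 to −0.57 over the other scalings. The brighter ITGAM probe set was lower too, by −0.52 under SF and −0.39 under Epo, each beyond its spread of 0.25, but the other gave 0.09 and 0.45 (0.01 for Epo with the floor at the 60th percentile). ITGAL gave 0.33 under SF, beyond its spread of 0.18, and 0.15 under Epo, within it. ITGA5 gave 0.20 and 0.01, and ITGB2 0.14 and 0.00. The brightest ITGB3 probe set gave −0.15 and −0.05.

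**Figure D3:**
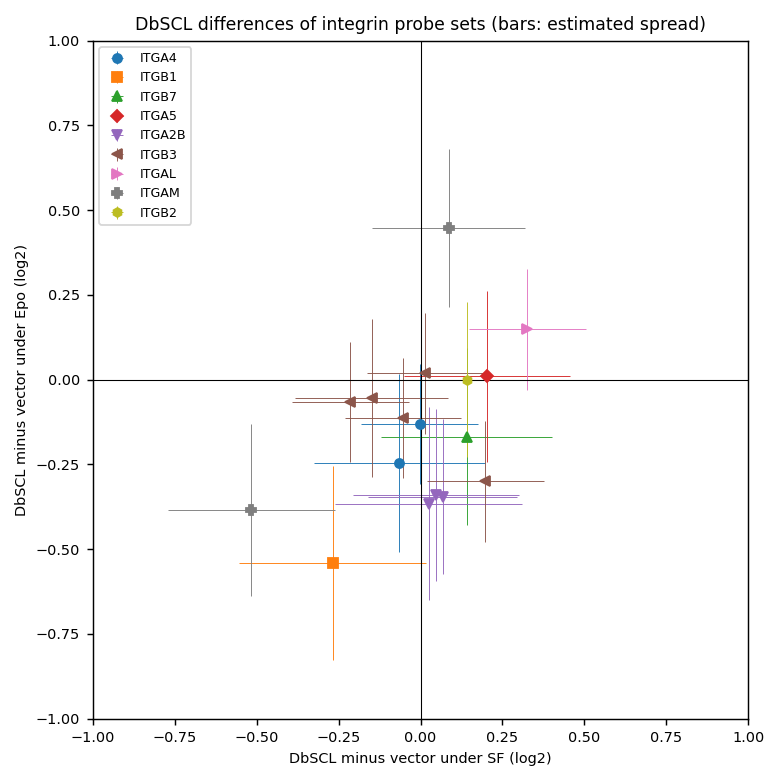
Log2 difference between DbSCL and vector cells under SF (horizontal axis) and under Epo (vertical axis) for 17 integrin probe sets; each point is a probe set, colours and shapes give the gene, and bars are the estimated spread without replicates. No point reaches 1.5-fold on either axis, the 3 ITGA2B points lie together near 0 for SF and near −0.35 for Epo, and ITGB1 lies at −0.27 and −0.54.

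Other genes of the integrin system were compared by the brightest probe set of each, from lists chosen with earlier results of these data known. Of 17 other integrin subunits 14 were matched and 7 exceeded the floor throughout, and none of the 7 to 9 compared reached 2-fold in any of the 6 comparisons. The share of all genes called was 0.596% for SF minus GM-CSF, 3.58% for Epo minus GM-CSF, 0.0361% for SF minus Epo in vector cells and 0.224% in DbSCL cells, and for DbSCL minus vector 0.355% under SF and 0.371% under Epo, so with so few genes a count of 0 is not a result about them. ITGAE, the alphaE chain that also pairs with beta7, had 8.27 with GM-CSF, 8.59 with SF and 8.88 with Epo in vector cells, and 8.38 and 8.62 in DbSCL cells under SF and Epo. ITGB5 had 6.70, 6.27 and 6.14 in vector cells in the same order, and 6.60 and 6.51 in DbSCL cells. ITGAV, the usual partner of beta5, was below the floor on all arrays, from 3.75 to 4.21. The 9 of these subunits compared for SF minus GM-CSF had a median of −0.35, with 6 below 0 and 1 above, where the median over all genes was 0.00 here and in the other 5 comparisons. The median was −0.14 for Epo minus GM-CSF, with 7 below 0 and 1 above, and 0.00 for SF minus Epo in vector cells and 0.09 in DbSCL cells. It was 0.13 for DbSCL minus vector under SF, with 7 above 0 and 1 below, and −0.0024 under Epo. Most lay close to the floor, where probe sets of the whole array had medians of about −0.09 for SF minus GM-CSF.

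Among 16 activation and tail-binding genes on the array, such as the talins and kindlins, 13 were compared for Epo minus GM-CSF and 1 was 2-fold higher, against 3.58% of all genes. This was CRKL, an adaptor that links receptors to the activator of RAP1, with 6.50 with GM-CSF, 7.18 with SF and 7.70 with Epo in vector cells, and 6.97 and 7.18 in DbSCL cells. Its difference was 1.20, but its other probe set gave −0.07. For SF minus GM-CSF 0 of 13 were called, against 0.596% of all genes, and none was called in the other 4 comparisons. No gene was called in any comparison among 20 focal adhesion and outside-in signalling genes, 11 ligands and counter-receptors, or 13 associated membrane proteins such as the tetraspanins, which is again read against those shares of 0.0361% to 3.58% and not as a result about these lists.

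Of the other adhesion receptors CD36, a receptor for thrombospondin and fatty acids, was called in 2 comparisons. It had 6.01, 6.53 and 7.22 in vector cells given GM-CSF, SF and Epo, and 5.84 and 5.68 in DbSCL cells under SF and Epo. For Epo minus GM-CSF it was the 1 of 9 genes compared that was 2-fold higher, against 3.58% of all genes (1.20, with 0.42 for its other probe set); 5 of the 9 lay above 0. It was also the 1 of 10 that was 2-fold lower in DbSCL cells under Epo (−1.53, with −0.36 for the other), against 0.371% of all genes. Under SF the DbSCL difference was −0.69, and −0.77 in the other probe set; 0 of 10 genes were called there, against 0.355% of all genes. For SF minus Epo 0 of 9 were called in vector cells and 0 of 10 in DbSCL cells, against 0.0361% and 0.224% of all genes.

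The probe sets whose 5 values ran most like those of ITGA4 were sought among 11037 others above the floor on all arrays, by the root mean square difference after each was centred on its own mean. ITGA4 was the only member whose brightest probe set had a range of at least 1. The closest was ZNHIT3 (212544_at), at 0.097 log2, followed by LRPPRC (211615_s_at, 0.098), UTP14A (221514_at, 0.101), COX11 (211727_s_at, 0.103) and ATG3 (221492_s_at, 0.103). None of these 5 is an adhesion gene. ZNHIT3 had 5.54, 6.42 and 6.71 in vector cells given GM-CSF, SF and Epo, and an equal 6.41 in DbSCL cells under SF and Epo. LRPPRC, an RNA-binding protein of mitochondria, had 7.78, 8.67 and 9.02, and 8.74 and 8.82 in DbSCL cells. All 5 were lowest on the vector GM-CSF array and highest on vector Epo. In all 6 the GM-CSF array lay farthest from the mean of the 5, so the likeness rests largely on that array.

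**Figure D4:**
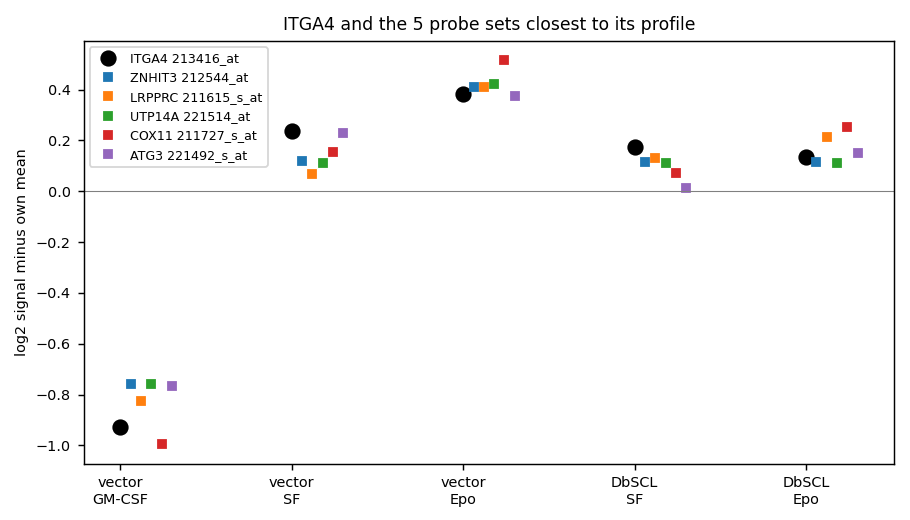
Log2 signal minus the probe set's own mean over the arrays (vertical axis) on the 5 arrays (horizontal axis) for ITGA4 213416_at (black) and the 5 probe sets closest to it (coloured, shifted sideways for view); each point is a single array. All 6 are lowest on vector GM-CSF and highest on vector Epo, with the SF and DbSCL arrays between.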

How the data were processed

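Gene expression was measured in TF-1 cells on 5 Affymetrix arrays, 1 per group. The authors deposited 1 log2 signal per probe set and array; the unit was read from the deposited values (2.08 to 13.77), and the summary method, normalization, software and versions are not given in the sources used here. A normalization between arrays could hide a shift shared by most genes. Values were used as deposited. The 68 control probe sets, 1043 with several symbols and 2107 with none were left out; symbols came from the platform annotation, and all 25 integrin probe sets matched the current gene table by identifier. Values below the floor were set to it, a probe set was compared when at least 1 of 2 arrays was above it, and a log2 difference of at least 1 (2-fold) was called, with 1.5-fold as a second count. Probe sets of different genes were not compared in level. Members, lists and rules were chosen with earlier results of these data known. Every member was described, with all 5 values for the brightest probe set of a gene and for others past 1.5-fold; list genes were named past 2-fold, and ITGAE, ITGB5 and ITGAV were named after their values were seen. The low ITGB3 and ITGA4 probe sets with values were likewise added. Alternatives were other floors, quantile and cyclic loess normalization (limma 3.58.1, R 4.3.3), median centring, and other summaries per gene. Python 3.11.15 with pandas 2.3.3 was used. With 1 array per group, the number of arrays limits the precision.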

Additional observations from a re-analysis of the deposited data

Results flagged for a closer look

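ITGB3 probe set 216261_at was 0.20 higher in DbSCL than in vector cells under SF and lower under Epo, at −0.30, so the single arrays moved in opposite directions, each by more than the estimated spread of 0.18. The difference between the cytokines was not tested, as there is 1 array per group. The 17 member probe sets compared were screened for such opposite differences, and only 216261_at had them. How many of all probe sets would have them was not counted. The probe set lies close to the floor, with signals from 4.47 to 4.86, and the brightest ITGB3 probe set gave −0.15 and −0.05.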

How the results depend on the processing

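The counts at 2-fold and the medians of the members were recomputed under 8 alternatives. Without a floor, 2 probe sets were called for SF minus GM-CSF and 2 for Epo minus GM-CSF in place of 1 each, the added one being ITGA4 205885_s_at. With a call at 1.5-fold there were 2 and 4, and 1 for SF minus Epo in DbSCL cells in place of 0. With each gene taken as the mean of its probe sets there were 0 and 0. The other counts at 2-fold were as in the main setting. The median over the members ran from −0.059 to 0.14 over the alternatives for SF minus GM-CSF, from −0.053 to 0.082 for Epo minus GM-CSF, from −0.093 to 0.0019 for SF minus Epo in vector cells and from 0.0033 to 0.23 in DbSCL cells. For DbSCL minus vector it ran from −0.024 to 0.14 under SF and from −0.26 to 0.00 under Epo. These medians have no error of their own, so they are given as values only. The ITGA4 213416_at difference stayed past 2-fold under each floor and scaling, from 1.11 to 1.24 for SF and from 1.25 to 1.39 for Epo. Of the differences of 12 named probe sets, 4 moved by more than their spread. Quantile normalization gave 0.39 for ITGA2B 206493_at and 0.12 for ITGB1, both for Epo minus GM-CSF. A floor at the 60th percentile gave −0.16 for ITGAM 205785_at in that comparison and 0.01 for DbSCL minus vector under Epo. Only ITGA4 213416_at had called differences among them, and these kept their sign. Some uncalled differences changed sign between scalings, among them ITGB1 for SF minus GM-CSF (0.24 as deposited, −0.0088 with quantile normalization). ITGAL could not be compared with the floor at the 60th percentile, so it is not counted there. No paired analysis was possible because each group has 1 array and the labels give no replicate numbers. Weak signals limit ITGB3, ITGAL and the lesser ITGA4 probe sets.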
